A study of Xenopus tropicalis with 40 samples.

Results

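The forkhead and Sox transcription factor genes of the western clawed frog Xenopus tropicalis were described in a catalogue of transcripts that the authors assembled from polyadenylated RNA of whole embryos. Members were the genes whose symbol begins with fox, a letter from a to s and a digit, or with sox and a digit. In all, 40 genes qualified, 27 forkhead and 13 Sox, of 8329 annotated genes with a transcript on their own strand, and 6 symbols of these families are not reported here. The members have 334 gene models, of which 309 lie on the gene's own strand and the others are antisense to it, among 159469 models in the catalogue.

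The 40 libraries came from outbred embryos of 23 stages, from the 2-cell embryo to the tadpole of stages 44 and 45. Clutch 1 gave 16 libraries and clutch 2 gave 24, and 13 stages were sampled in both. The labels name no treatment and no altered gene. The catalogue is 1 pool over all libraries, so it holds no value for a stage, a clutch or a replicate, and the depth of the libraries is unknown. What follows is therefore a description of gene structures with no test between samples, and a transcript that is missing from the pool may still be present in the embryo.

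Forkhead proteins bind DNA through a winged-helix domain, and Sox proteins bind in the minor groove through an HMG box and bend the DNA. Both families act early in the embryo. FoxH1 carries Nodal signals into the nucleus, and FoxA and SoxF proteins act in endoderm. The SoxB proteins Sox1 and Sox2 keep neural progenitors undifferentiated, and Sox9 with the SoxD proteins acts in cartilage. Many members of both families are compact genes with few or no introns, while the FoxP, FoxK and SoxD genes are long and split into many exons.

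Member genes had few exons. The largest exon number among a gene's transcripts had a median of 4 over the 40 members (quartiles 2 and 11; 95% order-statistic interval of the median 3 to 8), against 9 over all annotated genes (quartiles 5 and 14). The median was 4 in the forkhead genes and 4 in the Sox genes. Of the members, 23 genes had 1 to 4 exons, 15 had 7 or more, and 2 had 5 or 6. These bounds were not planned beforehand, and whether the members form separate sets was not tested. Of 8329 annotated genes, 1493 had 1 to 4 exons, 652 had 5, 629 had 6 and 5555 had 7 or more. Among the forkhead genes 14 had 1 to 4 exons and 11 had 7 or more, and among the Sox genes the counts were 9 and 4. The 5 exons of foxf2 are those of a widely stretched placement, beside a compact model of 2 exons. The 17 exons of sox18 come from a locus where no sox18 model lies. The share of members with 10 or more exons was 12 of 40 (30%, Wilson 95% interval 18.1% to 45.4%), and over all annotated genes it was 46.0%.

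Isoform number, counted as assembled transcripts of the gene with at least 2 exons, was spread very unevenly. The members had 279 isoforms in all and a median of 3 per gene, against 5 over all annotated genes. Of these isoforms, 71.3% belonged to 10 genes, and a matching share over all annotated genes is not given here. The 10 include sox18, where 6 of 9 isoforms lie at a locus without a sox18 model. The 15 genes with 7 or more exons held 222 isoforms (79.6%) at a median of 10 per gene, where all annotated genes of that size had a median of 7. In the catalogue, annotated genes of that size held 67864 isoforms, where all annotated genes had 76927 assembled transcripts of any exon number. The 23 genes with up to 4 exons held 54 isoforms at a median of 2, where all annotated genes of that size had a median of 1. At least 10 isoforms were found in 8 members (20%, 10.5% to 34.8%), and the share over all annotated genes was 27.9%.

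**Figure D1:**
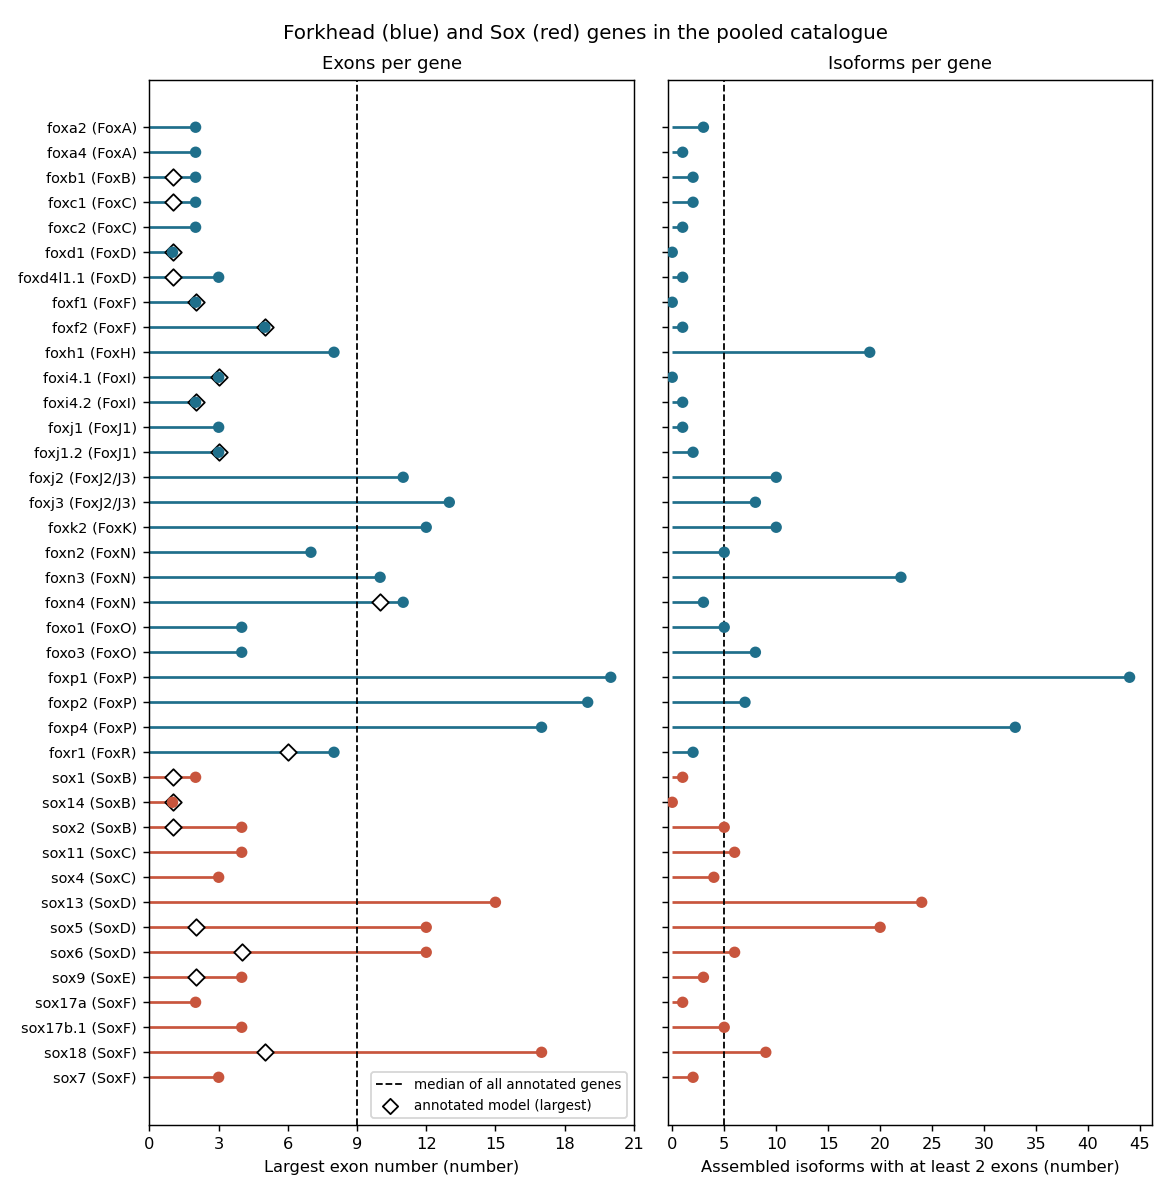
The largest exon number (left) and the number of assembled isoforms (right) of the members named in the text, ordered by subfamily; points are values per gene, open diamonds the largest exon number of an unassembled annotated model, and dashed lines the medians of 9 exons and 5 isoforms over all annotated genes. The FoxP genes (17 to 20 exons) and SoxD genes (12 to 15 exons) stand far to the right of the genes with 1 to 4 exons.

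The FoxP genes, repressors that act in lung, heart and brain, had the largest exon numbers of the forkhead members. foxp1 had 44 isoforms and 20 exons over 523722 bases of scaffold GL173040 (minus strand, 81774 to 605495). foxp4 had 33 isoforms and 17 exons over 40334 bases of GL172677 (minus strand, 1527788 to 1568121). foxp2, the gene whose loss in humans impairs speech, had 19 exons over 147871 bases of GL172672 (plus strand, 3791241 to 3939111) but 7 isoforms. The 3 genes have nearly the same exon number but differ widely in isoform number. Set against all annotated genes with the same exon number, 5.38% had as many isoforms as foxp1 or more, 9.34% as many as foxp4, and 79.2% as many as foxp2.

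Of the SoxD genes, which lack an activation domain and pair with other factors, sox13 had 24 isoforms and 15 exons on GL173065 (minus strand, 13740 to 129695) and sox5 had 20 isoforms and 12 exons on GL173761 (plus strand, 54502 to 219938). sox6 had 6 isoforms, and its transcripts lie on 2 scaffolds, with up to 6 exons on GL173441 and up to 12 on GL173637. Its exon number is therefore that of its larger piece. A second piece of sox5, an annotated model of 2 exons on GL174605, had no assembled transcript.

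The other genes with 7 or more exons include foxn3, a repressor linked to the DNA damage checkpoint. It had 22 isoforms and 10 exons over 186174 bases. foxh1, the Smad partner in Nodal signalling, had 19 isoforms and 8 exons within 14333 bases of GL173015 (plus strand, 470347 to 484679). Both were high for their size: among all annotated genes with the same exon number, 6.44% had as many isoforms as foxn3 and 7.53% as many as foxh1. foxj2 and foxk2 had 10 isoforms each with 11 and 12 exons, foxj3 had 8 with 13 exons, and foxn2 had 5 with 7 exons. These lie near the medians of 6, 7, 7 and 4 isoforms for all genes with their exon numbers. foxn4, a retinal and spinal cord factor, had 3 isoforms with 11 exons, and foxr1 had 2 with 8 exons. At these last 2 genes 82.1% and 83.6% of genes with the same exon number had as many isoforms or more.

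**Figure D2:**
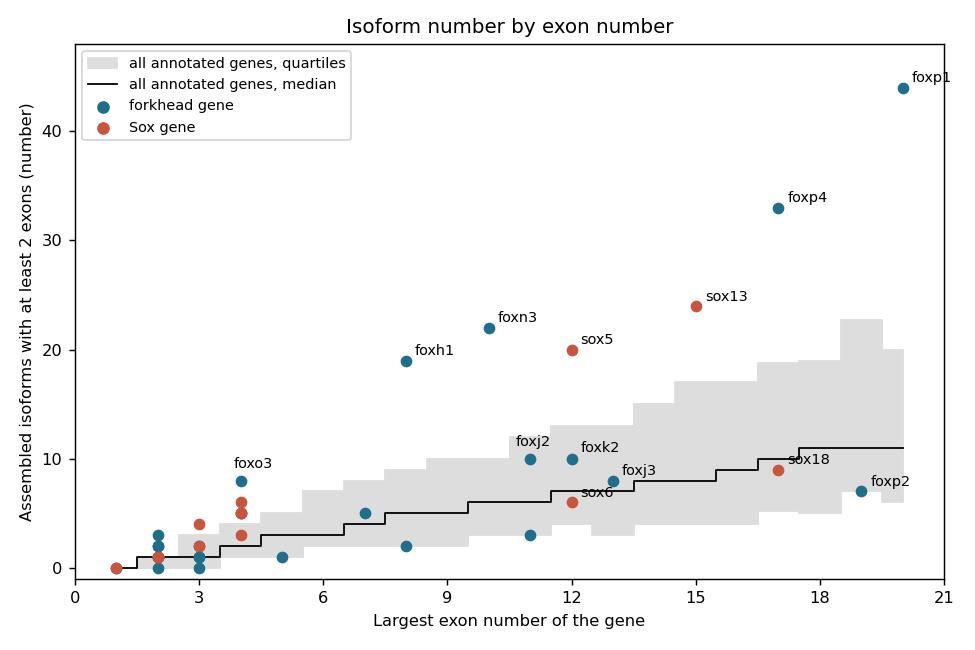
Assembled isoforms against the largest exon number for the members named in the text (points) over the median (line) and quartiles (grey) of all annotated genes with the same exon number. foxp1, foxp4, sox13, foxn3, sox5 and foxh1 are among those above the upper quartile, and foxp2, foxn4 and foxr1 among those below the median.

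Insulin signalling keeps the FoxO factors out of the nucleus through Akt. Of the forkhead genes with up to 4 exons, the FoxO genes had the most isoforms. foxo3 had 8 isoforms with at most 4 exons over 94735 bases, and 8.49% of annotated genes with 4 exons had as many or more. foxo1 had 5 isoforms with at most 4 exons over 37616 bases. The SoxC genes, which act in differentiating neurons, followed a like count: sox11 had 6 isoforms with at most 4 exons and sox4 had 4 with at most 3 exons. The SoxF gene sox17b.1, an endoderm factor, had 5 isoforms with at most 4 exons. It has no coding gene between it and its relatives sox17a and sox17b.2 in the RefSeq table. Reads may have been shared among these genes, which was not tested, so its count is uncertain. sox2, the neural progenitor factor, had 5 isoforms, of which 2 lie at its annotated model.

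A further set of members had 1 to 3 isoforms each. foxa2, the endoderm and floor plate factor, had 3, and sox9, the cartilage and neural crest factor, had 3. There were 2 isoforms each at foxb1, foxc1, foxj1.2 and sox7. A single isoform was found at foxa4, foxc2, foxd4l1.1, foxf2, foxi4.2, foxj1 (the factor that drives motile cilia), sox1 and sox17a. At least 2 isoforms were found in 28 of 40 members (70%, 54.6% to 81.9%), where the share over all annotated genes was 79.2%.

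No assembled transcript was found on the gene's own strand at 4 members (10%, 4.0% to 23.1%), and over all annotated genes the share was 10.7%. These were foxd1, a kidney stroma and retina factor in mice, foxf1, a gut mesenchyme factor, foxi4.1 of the FoxI group and sox14, a SoxB repressor. foxd1 and sox14 are single exons of 1824 and 1659 bases, on GL172749 (minus strand, 1113107 to 1114930) and GL172980 (minus strand, 304160 to 305818). foxf1 has 2 exons on GL172756 (plus strand, 341489 to 345523). foxi4.1 has 3 exons on GL172916 (plus strand, 516281 to 521624). Whether reads covered these 4 models is not recorded in the catalogue.

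Assembled transcripts were set against annotated models of a single exon. This could be done only where an annotated model remained unassembled in the catalogue. At foxo1 and sox13, for example, an assembled transcript matched the annotation and no unassembled model remained. The models counted here were therefore ones that no assembled transcript had replaced, and a transcript over them differs from them by selection. Members without such a model, among them foxc2, sox4 and sox11, are outside the first 2 counts below. Of the 18 members with an unassembled annotated model, 8 had a model of 1 exon (44.4%, Wilson 95% interval 24.6% to 66.3%), and over all annotated genes with such a model the share was 14.7%. They were foxb1, foxc1, foxd1, foxd4l1.1, sox1, sox2, sox14 and, in 5 of its 8 placements, sox18. Spliced assembled transcripts overlapped the single-exon model at 6 of these 8 genes (75%, 40.9% to 92.9%), all but foxd1 and sox14, where over all annotated genes the share was 23.4%. Since foxd1 and sox14 have no assembled transcript on their own strand, this share also depends on whether a gene was assembled at all. In the catalogue only foxd1 and sox14 had 1 exon in every transcript (5%, 1.4% to 16.5%), and the share over all annotated genes was 1.56%. Both have only their annotated model. Of the 36 members with assembled transcripts, 0 had 1 exon in all of these, and a matching share over all annotated genes is not given here. The intervals cover counting error only, since genes of 1 family share descent and are not independent.

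At 4 of the 6 genes an intron lay wholly inside the annotated exon (66.7%, 30% to 90.3%), and among all annotated genes with a spliced transcript over a single-exon model the share was 14.4%. The catalogue holds 17 such introns in 15 genes, and 5 of them are in members. foxc1, a factor of paraxial mesoderm and the eye, had one of 583 bases that starts 294 bases into the model and one of 123 bases that starts 331 bases into it, each in 1 of its 2 transcripts. foxd4l1.1, which keeps neural ectoderm immature in the frog, had an intron of 107 bases that starts 260 bases into its model of 1626 bases. In sox1, a SoxB factor of the neural plate, the intron had 123 bases and started 1387 bases into a model of 3130 bases. In sox2 an intron of 194 bases, starting 1381 bases into the model of 2222 bases, was present in both transcripts at that locus. The 2 introns of 123 bases have a length divisible by 3 and those of 107, 194 and 583 bases do not. Coding ends are not given in the models, so it cannot be said whether these introns remove coding sequence.

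**Figure D3:**
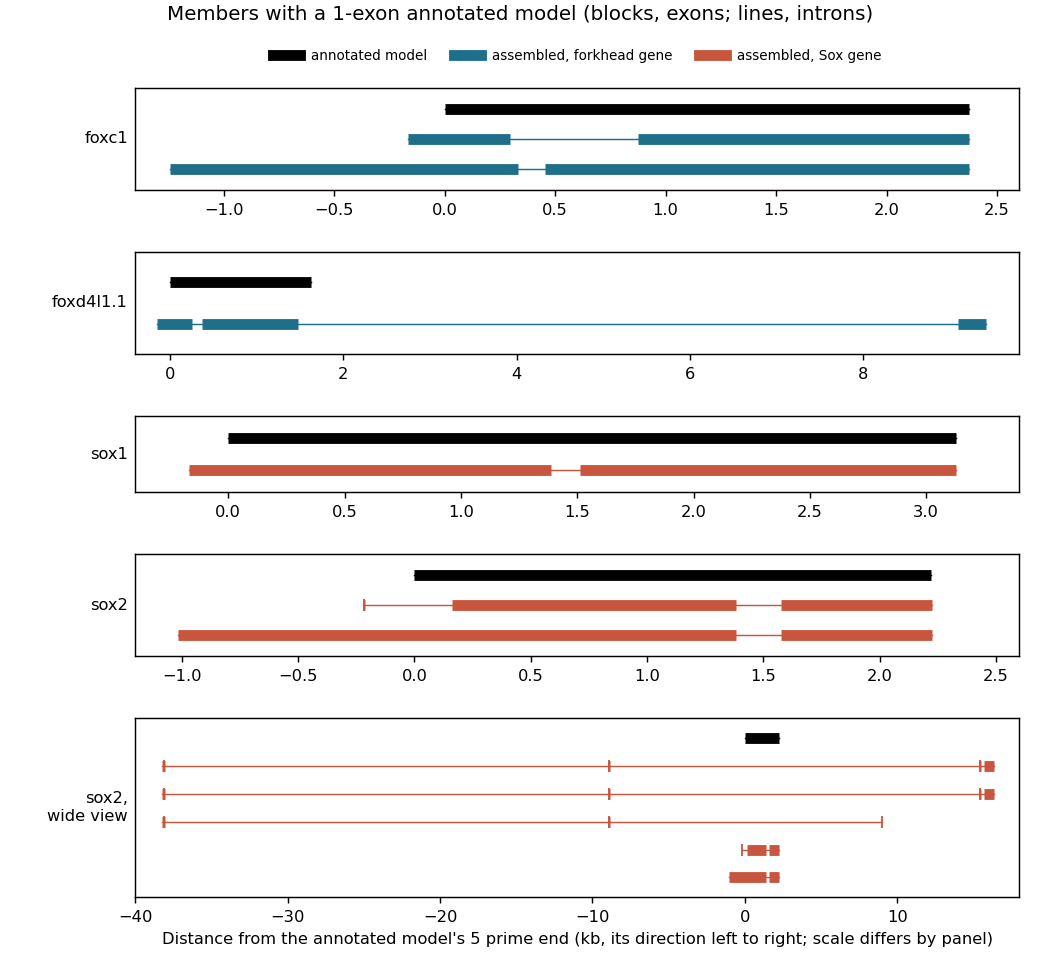
Annotated models (black) and assembled transcripts (blue, forkhead; red, Sox) of foxc1, foxd4l1.1, sox1 and sox2, drawn by distance in kb from the 5 prime end of the annotated model; blocks are exons and lines introns. Gaps of 107 to 583 bases lie inside the single annotated exon, and the lowest panel shows the 3 long transcripts around sox2.

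At the other 2 genes no intron lay inside the annotated exon. foxb1, a gene of the hypothalamus in mice, had 2 transcripts with introns of 185 and 879 bases that extend past the 5 prime end of the model on GL172960. At sox18, a blood vessel factor, 1 of the 8 placements, on GL174148, had a 2-exon transcript of 2473 bases that holds the whole annotated exon of 1766 bases, with its intron outside it. The genes foxc2, sox4 and sox11 had transcripts that overlap an annotated exon without sharing a splice junction and no annotated model among the gene models. Their shortest introns ranged from 89 bases in sox11 to 332 bases in foxc2. Transcripts of this overlap class made up 25 of 107 Sox models (23.4%) and 12 of 227 forkhead models (5.29%), antisense models included. Of the Sox transcripts, 6 lie at a sox18 locus on GL173472 that has no sox18 model. Another 2 of sox18 on GL173902 and 3 of sox2 share no exon base with the annotated model. The 2 family shares are therefore not comparable, and the share over the whole catalogue is not given here.

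The symbol sox2 also covered a second locus. The annotated exon lies on GL172881 (minus strand, 1124580 to 1126801). On the same strand 3 spliced transcripts, with 4, 4 and 3 exons and spans of 54560, 54562 and 47234 bases, run from 1165032 at the 5 prime end to 1110471 and share no exon base with it. The annotated exon lies within one of their introns, which is 24186 bases long in 2 of them and 17829 bases in the other. In mammals SOX2 lies within an intron of a long noncoding gene on the same strand, SOX2OT, and the data here do not show what these transcripts encode. Without this locus sox2 has 2 isoforms.

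The values of sox18 do not describe 1 gene. Its annotated model was placed at 8 positions on 8 scaffolds, and with its assembled transcripts the symbol covered 9 scaffolds. The 17 exons come from a locus on GL173472 (minus strand, 240185 to 368921) with 6 transcripts, where no sox18 model lies. Of the placements, 2 spread 1276 and 1285 exon bases over 699503 and 1594097 bases, on GL172773 and GL172891. foxf2 had a second placement of this kind, 5 exons with 276 bases in all over 527094 bases of GL172672, beside its compact model of 2 exons on GL172731. Its 5 exons are those of that placement. Models on several scaffolds were found in 5 members, foxf2, sox5, sox6, sox9 and sox18 (12.5%, 5.5% to 26.1%), and the share over all annotated genes was 8.60%.

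Loci of at least 100 kb were found in 9 members (22.5%, 12.3% to 37.5%), and over all annotated genes the share was 7.54%. In foxf2 and sox18 these include stretched placements, and sox18 has an assembled locus of 128737 bases as well. The other 7 rest on assembled transcripts: foxp1, foxn3, sox6 (184785 bases), sox5 (165437 bases), foxp2, sox13 (115956 bases) and sox9 (103976 bases). The span of sox9 contrasts with its annotated model of 2 exons over 4019 bases, since a first exon lies far upstream with an intron of 89417 bases.

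Separate first exons, which do not overlap each other among the spliced transcripts of a locus, numbered at least 2 in 21 members (52.5%, 37.5% to 67.1%), and over all annotated genes the share with at least 2 was 60.8%. At least 3 were found in 9 members (22.5%), where the share over all annotated genes was 35.3%. These were foxp1 with 14, foxn3 with 7, foxh1 with 6, foxp4 with 4, and foxa2, foxj1.2, foxj2, sox6 and sox18 with 3 each.

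In foxp1 the first exons were spread over 410975 bases. The outermost was used by 9 transcripts, others at 201129 and 223228 bases from the 5 prime end by 3 and 4 transcripts, one at 377065 bases by 7 and the innermost at 410975 bases by 4. Of the 14 first exons 9 were at least 25 bases long. An exon of 9 bases at 382490 bases began 6 transcripts, and 22 of the 44 isoforms began or ended with an exon of up to 12 bases. Over all members 47 isoforms of 17 genes had such a short terminal exon (42.5% of members, 28.5% to 57.8%), and over all annotated genes 46.1% had one.

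In foxn3 all 7 first exons had at least 25 bases. The outermost pair, at 0 and 901 bases, began 2 and 3 transcripts, the pair at 107252 and 108912 bases began 8 and 5, and 3 further ones lay between 145151 and 162113 bases. In foxp4 the exon at 1730 bases began 21 transcripts and the outermost 10, and the other 2 first exons had 10 and 8 bases. In foxh1 the outermost exon began 8 transcripts and one at 139 bases began 7, and each of the other 4 began 1. foxj2 had 3 first exons within 4753 bases, used by 1, 4 and 5 transcripts. In sox6 they lay at 0, 61334 and 119424 bases, and in sox18, at the locus without a sox18 model, at 0, 57337 and 64719 bases. foxa2 had 3 within 353 bases, each in 1 transcript, and those of foxj1.2 lay at 0, 619 and 3327 bases.

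**Figure D4:**
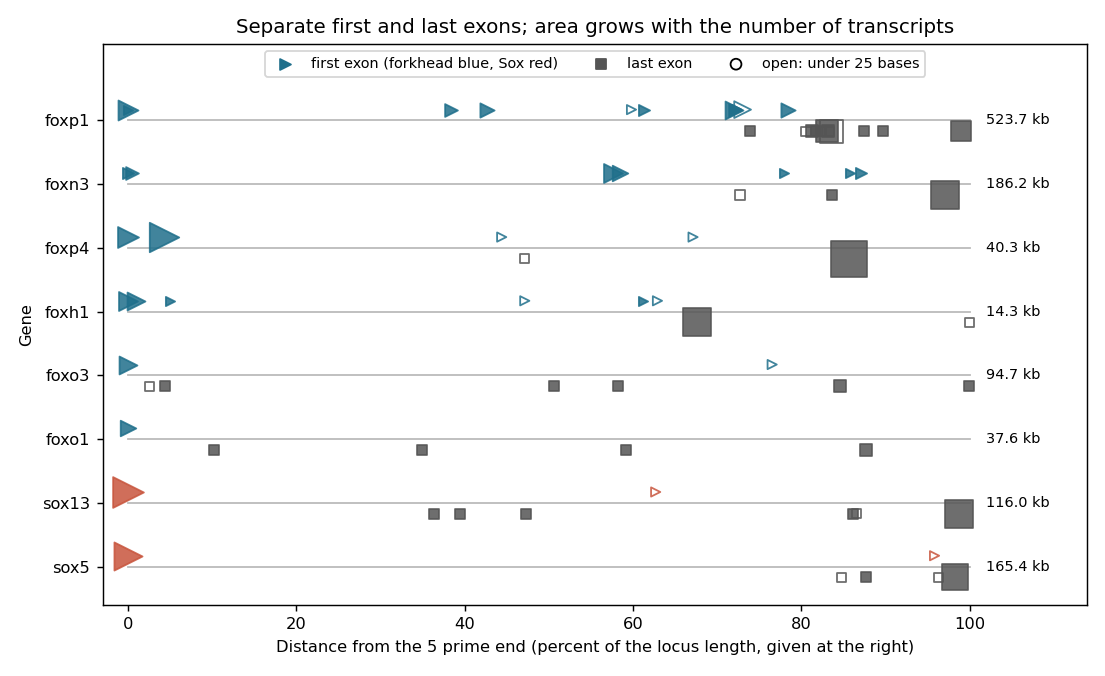
Positions of separate first exons (triangles) and last exons (squares) of 8 members as percent of the locus length from its 5 prime end; symbol area grows with the number of transcripts and open symbols are exons under 25 bases. First exons of foxp1 and foxn3 are spread along the locus, whereas foxo1, foxo3 and sox13 have 1 main first exon and last exons spread along the locus.

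Last exons were counted in the same way. At least 2 were found in 17 members (42.5%, 28.5% to 57.8%; 48.9% over all annotated genes), and at least 4 in 5 members (12.5%, 5.5% to 26.1%; 12.2% over all annotated genes). The counts were 12 in foxp1, 6 each in foxo3 and sox13, and 4 each in foxo1 and sox5. Both FoxO genes had a main first exon and several ends. All 5 transcripts of foxo1 shared 1 first exon, and their last exons began at 3868, 13128, 22240 and 32984 bases from the 5 prime end. The farthest of these had up to 4632 bases and was used by 2 transcripts. In foxo3 the first exon of up to 1529 bases began 7 of 8 transcripts, and the last exon of up to 3136 bases at 80111 bases ended 3. In sox13 19 of 24 transcripts ended in the exon at 114464 bases, and in sox5 17 of 20 ended in the one at 162581 bases. In foxp1 the last exon of up to 5590 bases at 518132 bases ended 9 transcripts, while 11 ended in an exon of up to 73 bases at 435117 bases and 12 in one of 9 bases at 437912 bases.

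Skipped exons were found in 12 members (30%, 18.1% to 45.4%), and over all annotated genes the share was 50.7%. All 12 are genes with 7 or more exons: foxh1, foxj2, foxj3, foxk2, foxn2, foxn3, foxp1, foxp2, foxp4, sox5, sox6 and sox13. Of 45 skipped exons, counted by exact ends, 23 (51.1%) had a length divisible by 3, and over all annotated genes 45.7% did. Their median length was 90 bases in members and 93 over all annotated genes. Exons included and skipped in like numbers of transcripts were, for example, one of 66 bases in foxn3 (8 with, 9 without), one of 90 bases in foxp2 (4 with, 3 without) and one of 75 bases in foxj2 (4 with, 4 without). In foxp4 an exon of 90 bases was present in 17 transcripts and skipped in 7. Forms of that exon with 81 and 93 bases were present in 6 and 1 further transcripts. The exon of 66 bases in foxn3 and that of 75 bases in foxj2 also had shorter forms, of 63 bases in 2 transcripts and 34 bases in 1. The one of 502 bases in foxh1 was present in 11 and skipped in 5, that of 86 bases in sox5 in 13 and 6, and that of 67 bases in sox13 in 18 and 5. Skipping of a microexon of at most 27 bases was found in 0 of 40 members (upper Wilson bound 8.76%), and over all annotated genes the share was 3.99%.

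Acceptor sites 3 bases apart, which add or remove a single codon if the exon is coding, were found in 10 members (25%, 14.2% to 40.2%), and over all annotated genes the share was 17.2%. All 3 FoxP genes had one. In foxp1 13 transcripts used the site that gives the longer exon and 28 the other, in foxp2 the counts were 3 and 4, and one of 2 such pairs in foxp4 gave 17 and 14. foxk2, foxn4, sox2, sox6, sox9, sox11 and sox18 also had a pair. The pair of sox2 lies at the locus that shares no exon with its annotated model, and that of sox18 at a locus without a sox18 model. Without these pairs 8 members had one. Members with no annotated model at any locus, such as sox11, were kept in that count. Introns retained within an exon of another spliced transcript were found in 12 members (30%; 25.2% over all annotated genes). That of sox18 lies at a locus that shares no exon with a sox18 model. Kept to loci with an unassembled annotated model, or to members without any, the count was 10, with sox18 and sox5 left out. There were 15 such introns in foxh1, 9 in sox11 and 5 in sox5. These 3 genes also have antisense transcripts, whose part in the retained introns was not tested.

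Antisense transcripts, which lie on the other strand over an annotated exon, were found at 11 members (27.5%, 16.1% to 42.8%), and over all annotated genes the share was 22.1%. They were 7 of 27 forkhead genes (25.9%) and 4 of 13 Sox genes (30.8%). There were 22 such transcripts, 17 with 2 exons and 5 with 3, and in the whole catalogue 5444 of 5446 are spliced. None shares an intron with a sense transcript of its gene. Of the 22, 15 lay inside the gene's span, 3 crossed its 3 prime end, 2 crossed its 5 prime end and 2 covered it. Transcripts with an intron overlapping an annotated intron on the other strand, a separate class, were found at foxh1 and foxa4 (5%; 3.70% over all annotated genes), so that 12 members had either class (30%; 24.4% over all annotated genes). Whether transcripts of this separate class are antisense RNA or come from misplaced reads was not tested.

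At 5 genes with 1 to 4 exons, antisense transcripts covered most of the exon bases. At foxc2, a gene of mesoderm and lymphatic vessels on GL172817 (plus strand, 1557189 to 1559777), 2 antisense transcripts covered 82.2% and 69.2% of the 2257 exon bases. At sox11 on GL172761 (minus strand, 1687718 to 1691780) they covered 93.6% and 57.2% of 4063 exon bases, and both end at the very base of the gene's outermost 5 prime end. At sox17a, an endoderm factor on GL175899 (plus strand, 1332 to 3025), the transcript covered the gene and 89.2% of its exon bases. foxi4.2 on GL172916 had 1 that covered 66.7% and extended 23 bases past the 5 prime end. foxd1, which has no assembled sense transcript, had a 2-exon antisense transcript of 3179 bases over all 1824 bases of its model. This transcript has an intron of 14469 bases and reaches 15734 bases beyond the 5 prime end of foxd1.

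**Figure D5:**
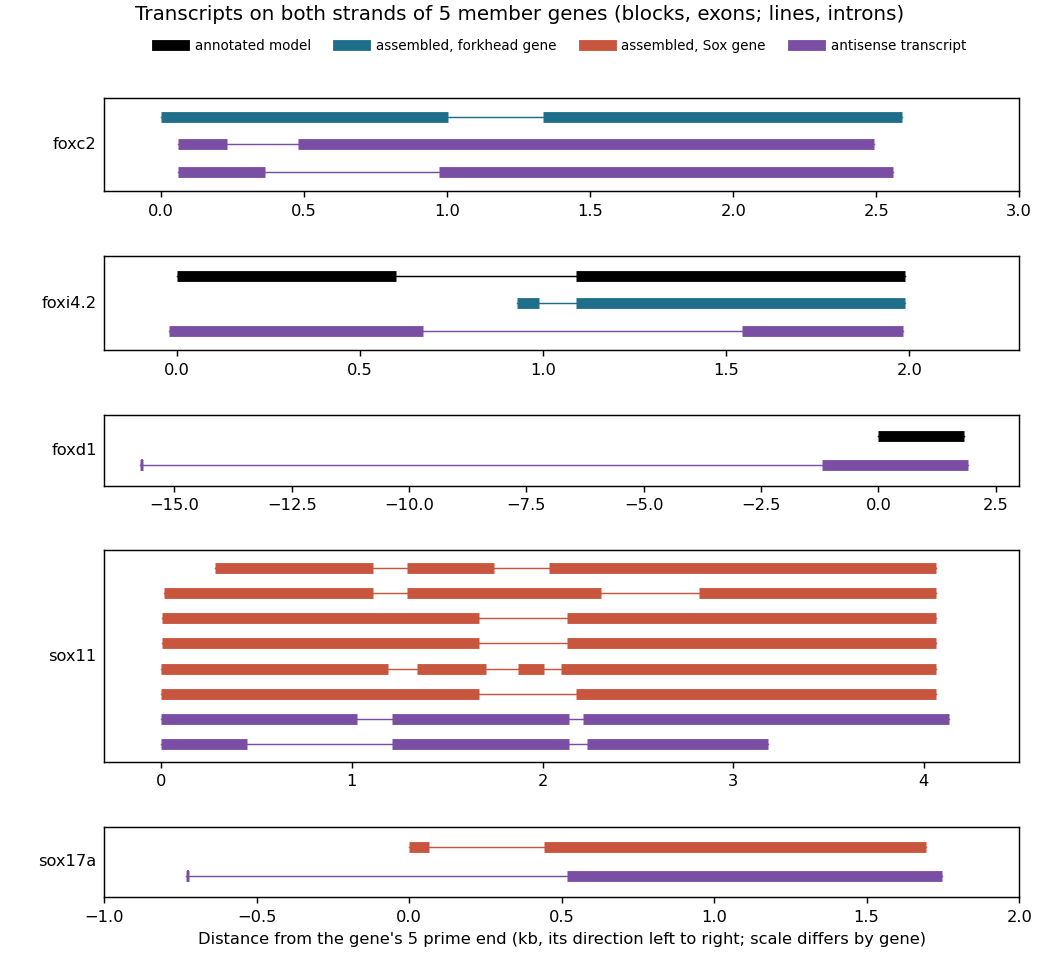
Transcripts on both strands of foxc2, foxi4.2, foxd1, sox11 and sox17a by distance in kb from the gene's 5 prime end (black, annotated model; blue, forkhead; red, Sox; purple, antisense); blocks are exons and lines introns. The antisense exons cover from 57.2% to 100% of the gene's exon bases.

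The antisense transcripts of the other 6 genes differed in how much they covered. foxh1 had 6, at 2 loci: 1 of 1567 bases over the 5 prime part and 5 of 4121 to 5750 bases over the 3 prime part, which covered 51.9% to 75.9% of the 4484 exon bases. foxn3 had 4 at its 3 prime end, of which the longest had 5188 bases, covered 61.7% of the exon bases and had its outer end at the base of the gene's 3 prime end. At foxk2 a transcript of 3670 bases lay wholly within exon sequence and covered 43.1% of it. At sox5 one of 2540 bases lay over the first exon, covered 34.8% and had its outer end at the base of the gene's 5 prime end. sox4 had 2 that covered 17.9% and 18.4% of 7876 exon bases. At foxo1 a transcript of 742 bases covered 10.1% and reached 920 bases beyond the 5 prime end. Exons on the other strand, without a transcript of the antisense class, met exons of 4 further members, foxa4, foxj2, foxp1 and sox18. At foxa4 the transcript with an overlapping intron, counted above as a separate class, covered 95.1% of the 1750 exon bases.

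Some members lie close together. foxc1 and foxf2 are 81703 bases apart on GL172731, on the same strand, with 1 locus between them in the catalogue and no coding gene between them in the RefSeq table. foxi4.1 and foxi4.2 are 19443 bases apart on GL172916 on opposite strands with none between. These are the 2 pairs within 200 kb. foxc2 and foxf1, of the same subfamilies as the first pair, lie on different scaffolds here and have 27 coding genes between them in the RefSeq table. sox6 was the member with a head-to-head locus within 1 kb (2.5%; 3.43% over all annotated genes), an unannotated locus of up to 3 exons that starts 172 bases away. The single foxj1 transcript belongs to a locus joined with rnf157, and the 2 of sox7, a blood vessel factor, to one joined with pinx1 (5%; 7.84% over all annotated genes). In the RefSeq table these genes are neighbours with no coding gene between. Loci nested within the span of 5 members (12.5%, against 9.15% over all annotated genes) numbered 26 in sox18, 6 in foxf2, 2 in foxr1 and 1 each in foxj1 and foxp1. For foxj1 that span is the whole locus joined with rnf157, so the nested locus need not lie within foxj1 itself. The spans of sox18 and foxf2 include their stretched placements, of up to 1594097 and 527094 bases. How many of the nested loci lie within these placements was not counted.

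The deposited relative weight, a score of at most 1 that is no measure of abundance, equalled 1 in 112 of the members' 282 assembled transcripts (39.7%), and over all annotated genes in 31.3%. It was 1 in 33 of 44 transcripts of foxp1, 6 of 8 of foxo3, 5 of 6 of sox11 and 4 of 5 of sox2. In sox2, 3 of these are the transcripts that share no exon base with its annotated model. The transcripts with introns inside a single-exon model had weights of 0.5 and 0.333 in foxc1, 0.113 in foxd4l1.1, 0.0714 in sox1, and 0.292 and 1 in sox2. Each such intron of foxc1, foxd4l1.1 and sox1 rests on 1 transcript. In sox5 it was 1 in 0 of 20, in foxk2 in 0 of 10, in foxj3 in 0 of 9 and in foxp2 in 0 of 7.

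All 5 lists of genes related to the members had more exons at the median than the members. Of 22 genes with an HMG box outside the Sox family, 14 had a model, with medians of 12 exons and 10.5 isoforms. tcf7l2, a Wnt pathway factor, had 77 isoforms and smarce1, a chromatin remodelling subunit, 25. Genes that regulate FoxO proteins (13 of 19 with a model) had medians of 11 exons and 9 isoforms, led by akt2 with 21 and ywhaq, a 14-3-3 protein gene, with 20. Of 11 cartilage genes downstream of Sox9 and SoxD, 6 had a model, with medians of 21 exons and 13 isoforms, led by col2a1 with 171 and col9a2 with 56. Partner factors of Sox proteins (8 of 11) had medians of 7 exons and 8 isoforms, led by pou2f1 with 47 and pax2 with 37. Genes of the SoxF and FoxA endoderm network (9 of 15) were closest to the members, with medians of 6 exons and 2 isoforms, and gata6 with 18 and gata4 with 10 had the most. Antisense transcripts were found at 5, 6, 3, 5 and 2 genes of these lists in the order given. These are 35.7%, 46.2%, 50%, 62.5% and 22.2% of the genes with a model, and over all annotated genes the share was 22.1%. The lists are short, and no test was made between them and the catalogue.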

How the data were processed

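Polyadenylated RNA was sequenced with the strand kept by dUTP marking, per the labels' protocols. Bowtie, TopHat and Cufflinks were used per the submitters' processing notes. No source used here gives their versions or settings, the genome build or the annotation. The deposited gene models, pooled by the authors over all libraries, give scaffold, strand, exon ends and exon number; positions are printed counted from 1. In the deposited isoform table the column headed FPKM is a score: none of 167756 values exceeds 1 and 58.9% equal 1, so it was read as a relative weight and not as abundance. The deposited coverage signal is at most 10.2 and was not used as depth. No counts or values per library were analysed here, so the depth is unknown and the stage and clutch comparison that had been planned was not run.

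Models with an assembler's number counted as assembled, the others as annotated models. Isoforms were assembled own-strand transcripts with at least 2 exons. First and last exons were counted as the largest number of non-overlapping ones at 1 locus. Antisense followed the Cufflinks class codes. Shares carry Wilson 95% intervals (scipy 1.17.1, Python 3.11.15), which cover counting error only; medians carry order-statistic intervals. The counting of skipped exons, alternative splice sites, retained introns and first and last exons was tested on simulated data. There, 200 of 200 made-up genes with 1 known variant or none were recovered. Antisense transcripts, single-exon models and placements on several scaffolds were not simulated. The members, lists and definitions were chosen with earlier results of these data known. All 40 members were found by symbol in the RefSeq table of assembly UCB_Xtro_10.0, used for names and neighbours; no sequence was used here. Values of 1 member enter the counts, but it is not reported by name here. The other members are named, and those among the 10 with most isoforms, with only an annotated model, with antisense transcripts, with 3 or more first exons or in a close pair are given in detail, as are the 2 genes of each comparison list with most isoforms. Members with introns in a single-exon model, skipped exons, several last exons or models on several scaffolds were singled out after their values were seen.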

Additional observations from a re-analysis of the deposited data

How the results depend on the processing

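Of 31 alternatives for 7 results, 10 of them chosen after seeing the data, 24 left the value within 1.5 times or within its interval. With annotated models only (18 genes) the median exon number was 2 and 7 genes had 1 exon in every transcript. With assembled transcripts only (36 genes) 0 did. Values over all annotated genes under these settings are not given here. With transcripts of relative weight 1 only, the median isoform number was 0 (1 over all annotated genes). Under that filter 7 members had several first exons, and the share over all annotated genes is not given here. Requiring 2 transcripts per first exon also left 7 members (27% of all annotated genes), while a minimum of 25 bases left 14 (49.4%). Counting any spliced transcript on the other strand within the span raised the members with antisense transcripts from 11 to 20 (46.0% of all annotated genes); counting exon overlap gave 15 (39.7%). No paired analysis was possible because the catalogue holds no value per library, and no library could be left out. The pool gives presence of a structure and not its level, stage or clutch; a structure that is missing may lie below an unknown depth. Models of sox5 and sox6 lie on 2 scaffolds each, stretched placements enter sox18 and foxf2, and whether sox17a and sox17b.1 share reads was not tested.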

Other observations

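Several other transcription factor families of the catalogue were counted in the same way. The klf genes (9) had medians of 3 exons and 2 isoforms, the pou genes (5) of 2 and 1, and the nkx genes (3) of 3 and 4. The hox genes (8) had a median of 4 exons, as the members did, but of 8 isoforms. The gata genes (4) had 7 exons and 14 isoforms, the tbx genes (5) 8 and 6, and the pax genes (4) 11.5 and 18.5. The lhx genes (3) had 6 exons and 2 isoforms, the irx genes (4) 4.5 and 3.5, and the zinc finger genes with a znf symbol (59) 6 and 6. None of these genes had 1 exon in every transcript. The highest isoform numbers were 95 in znf143 and 47 in znf207 and pou2f1. No test was made between families.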
